A study of Mus musculus with 15 samples.

Results

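The neuronal miRNAs described here are 14 assays of 8 miRNA families, miR-9, miR-124, miR-128, miR-129, miR-137, miR-138, miR-153 and miR-218, chosen by name and with any arm included, among 584 miRNA assays on a pair of TaqMan rodent arrays. The families were chosen with earlier results of these data known. They comprise 9 assays of card A (mmu-miR-9, mmu-miR-124, mmu-miR-128a, mmu-miR-129-3p, mmu-miR-129-5p, mmu-miR-137, mmu-miR-138, mmu-miR-153 and mmu-miR-218) and 5 of card B (mmu-miR-9*, mmu-miR-124*, mmu-miR-138*, mmu-miR-218-1* and mmu-miR-218-2*), where the star marks the arm of the hairpin that was thought to be the minor one. The study profiled a pair of mouse endocrine tumour cell lines, αTC1-6, a glucagonoma line that stands for pancreatic α cells, and βTC1, an insulinoma line that stands for β cells. Untreated αTC1-6 cells were taken at 24 h and at 48 h, αTC1-6 cells given a cocktail of cytokines (50 IU/ml of IL-1β and 1000 IU/ml each of TNF-α and IFN-γ) were taken at 24 h and 48 h post treatment (PT), and untreated βTC1 cells were taken at 24 h, with 3 samples in each of the 5 conditions. All cells came from passages 20 to 40 of 1 line per cell type, so a difference between the lines is a difference between tumour lines and not between α and β cells of an islet. The hormone mRNAs that define the lines were not among the assays. The methods of the study call its replicates independent biological replicates, and the labels do not say more of how they were cultured.

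These families are best known from the brain. miR-9 and miR-124 mark neural progenitors and neurons, miR-128, miR-137 and miR-138 act in neuronal excitability, neurogenesis and the growth of dendritic spines, miR-129 and miR-153 repress mRNAs of neuronal excitability and of secretory vesicles, and miR-218 is abundant in motor neurons. Endocrine cells of the islet share with neurons a machinery for regulated exocytosis and many of its transcription factors, and miR-9 and miR-124 have been studied in insulin secretion. A miRNA recognises its targets mainly through its seed, bases 2 to 8 from the 5′ end.

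Of the 14 assays, 12 were matched by name to a mature mouse miRNA of RefSeq (build GRCm38.p6), and their 12 seeds were all different. The sequences of the arms that the comparisons turn on are shown 5′ to 3′ with the seed in capitals: the 3 arms of the miR-218 hairpins and miR-137, miR-138 and miR-153, whose groups lay apart between the lines, and the paired arms of miR-129, of which 1 passed the test, and of miR-9, of which neither did.
mmu-miR-218: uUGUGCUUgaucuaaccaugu
mmu-miR-218-1*: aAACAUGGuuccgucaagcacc
mmu-miR-218-2*: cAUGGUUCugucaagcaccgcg
mmu-miR-129-3p: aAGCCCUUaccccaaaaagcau
mmu-miR-129-5p: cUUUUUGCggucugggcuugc
mmu-miR-137: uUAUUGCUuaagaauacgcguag
mmu-miR-138: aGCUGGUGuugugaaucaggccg
mmu-miR-153: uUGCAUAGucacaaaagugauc
mmu-miR-9: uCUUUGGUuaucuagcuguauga
mmu-miR-9*: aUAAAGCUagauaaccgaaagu

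The position of the hairpins says which assays report on which gene. The main arm of miR-218 is made alike from Mir218-1 (chr5:48223942-48224051, plus strand), within the span of Slit2, and from Mir218-2 (chr11:35616816-35616925, plus strand), within the span of Slit3, so the mmu-miR-218 assay reads both genes. The star assays are named for 1 hairpin each, mmu-miR-218-1* for Mir218-1 and mmu-miR-218-2* for Mir218-2, and their mature sequences share a longest run of 10 bases. Mir129-2 (chr2:94241364-94241453, minus strand) lies within the span of the long noncoding RNA Mir670hg and gives the 3p sequence shown above, while the 5p sequence is made alike from Mir129-2 and from Mir129-1 (chr6:29022619-29022691, plus strand). Mir137 (chr3:118433857-118433929, plus strand) and Mir138-1 (chr9:122682876-122682974, plus strand) overlapped no other annotated gene, and Mir138-2 (chr8:94324311-94324381, plus strand) lay within Nup93, which encodes a nuclear pore protein. Mir153 (chr12:117250817-117250885, plus strand) lies within the span of Ptprn2, which encodes a protein of dense-core secretory vesicles, and of the noncoding gene Gm5441. The main arm of miR-9 comes from Mir9-1 on chromosome 3, Mir9-2 on chromosome 13 and Mir9-3 on chromosome 7, each within the span of a long noncoding RNA (Gm3764, C130071C03Rik and Mir9-3hg). Only gene spans were available here, so exon and intron were not told apart.

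The arrays gave threshold cycles (Ct), the PCR cycle at which product is first seen, and the deposited values are ΔCt, the cycles by which an assay followed miR-26a in a sample. A ΔCt is on the log2 scale, and a lower ΔCt stands for more miRNA. The Ct of miR-26a itself lay between 16.97 and 18.98 over the 15 samples. Wells without product were set at Ct 40, the last cycle, and differences that rest on such wells depend on that setting. Between 214 and 337 miRNA assays of card A and between 174 and 191 of card B had a Ct in a sample. On card A the number was 214 to 276 at 24 h and 304 to 337 at 48 h, but this gap did not touch the 9 assays described here, which had a Ct in all 135 measurements, equal in the normalized and non-normalized tables within 0.01 cycles. miR-375, the defining miRNA of islet endocrine cells, was among the earliest products, with a Ct of 13.42 to 15.98. Of 15 assays for miRNAs of muscle, liver, blood cells and glia (the glial ones, 3 of miR-219, are also brain miRNAs), 6 had a Ct in all 3 untreated αTC1-6 samples of 24 h and 7 in all 3 βTC1 samples, and their summed level was 0.00187 to 0.00413 and 0.00484 to 0.00548 of the miR-26a level, respectively. At 48 h, 11 of the 15 had a Ct in all 3 untreated and in all 3 treated samples, with summed levels of 0.00792 to 0.0944 and 0.00488 to 0.0579. The muscle miRNA mmu-miR-133b had a Ct in no sample of 24 h in the normalized table, which sets as undetermined some card A wells of 24 h that have a Ct in the non-normalized one.

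Levels of the neuronal miRNAs spanned most of the range of the arrays. mmu-miR-9 was the most readily measured, with a Ct of 17.96 to 19.51 over the 15 samples, and by mean Ct it stood between position 10 and position 16 of the card A assays in the 5 conditions. mmu-miR-9*, the other arm of the same hairpins, stood between position 15 and position 22 of the card B assays. At the other end, mmu-miR-218-2* had a Ct in the 3 βTC1 samples and in 1 of the 12 αTC1-6 samples, where 1 of its paired wells read 36.01 in the third cytokine-treated sample of 48 h. PCR assays differ in efficiency, so these positions order the assays by cycle and do not measure molar amounts.

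**Figure D1:**
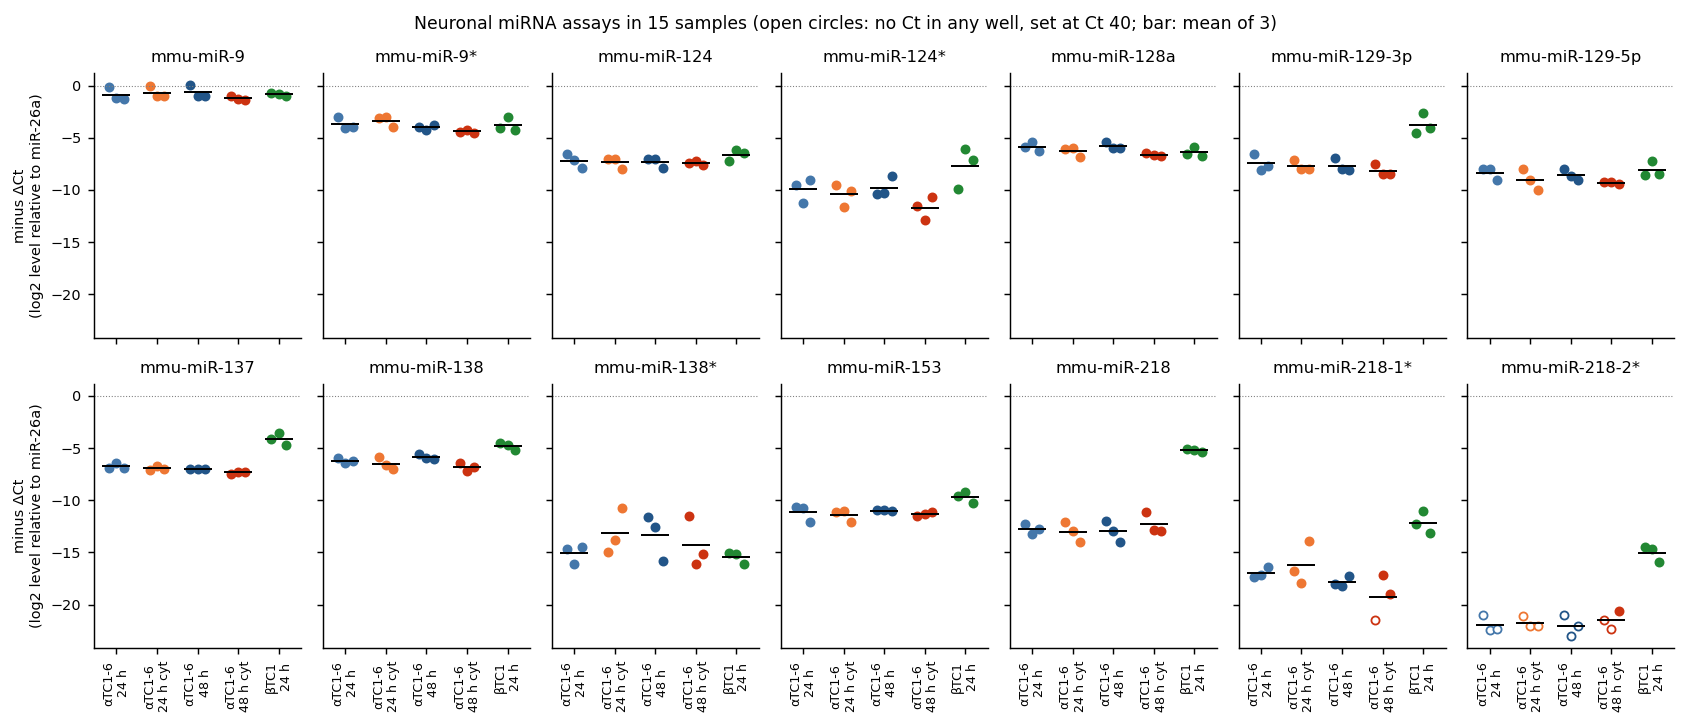
Level of each of the 14 neuronal miRNA assays in the 15 samples, as minus ΔCt (log2 scale, relative to miR-26a, shown by the dotted line at 0), by condition (cyt, cytokines); points are samples, bars the mean of 3, and open circles samples without a Ct in any well, set at Ct 40. mmu-miR-9 lay close to miR-26a in every condition, while mmu-miR-218 had a ΔCt of 5.23 in βTC1 and the 12 αTC1-6 samples lay between 11.14 and 14.02.

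At steady state, untreated βTC1 cells held more than untreated αTC1-6 cells at 24 h of 5 of the 13 neuronal miRNA assays that had a Ct in all 6 samples, and less of none (Limma test, Benjamini-Hochberg adjusted p-values under 0.05). The 5 were mmu-miR-218, mmu-miR-218-1*, mmu-miR-129-3p, mmu-miR-137 and mmu-miR-138. Of all assays with a Ct in the 6 samples, 14.1% were called higher in βTC1. Of all 480 assays tested, 29.6% were past the threshold, 85 of them (17.7% of those tested) higher in βTC1 and 57 lower. The test asked for a Ct in 3 of the 6 samples, and mmu-miR-218-2* entered it only through its βTC1 samples and therefore had to differ. It brings the count to 6 of 14 and is not support for it. The median log2 difference of the 14, βTC1 minus αTC1-6, was 1.42 (1.40 without mmu-miR-218-2*), beside 0.52 over all assays tested. Groups without overlap were common between the lines and are not particular to these miRNAs. Over the 480 assays, 78 lay apart as lower in βTC1, and more than 78 lay apart as higher. Of the 14, 7 lay apart as higher, mmu-miR-218-2* among them, and 0 as lower. No test compared the members with the other assays, and in RNA of whole cultures fewer expressing cells and less miRNA per cell cannot be told apart.

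miR-218, the motor neuron miRNA, had the largest measured difference of the 14. The ΔCt of mmu-miR-218 was 12.23, 13.22 and 12.74 in the 3 αTC1-6 samples and 5.13, 5.20 and 5.35 in the 3 βTC1 samples. The βTC1 samples ranged over 0.23 cycles, and 6.87 cycles lay between the nearest samples of the lines. This was a log2 difference of 7.50 ± 0.45 (SE, n = 3 per line) by the Limma test, or 181-fold, with an adjusted p-value of 5.88e-05. It was the sixth largest difference among the 46 assays that were called higher in βTC1 and had a Ct in all 6 samples. In cycles, without any reference, the αTC1-6 samples crossed the threshold at 30.42 to 31.21 and the βTC1 samples at 22.89 to 23.94.

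The star assays of miR-218 rest on few or late Ct values in αTC1-6. mmu-miR-218-2* (Mir218-2, in Slit3) had a mean Ct of 32.89, 33.40 and 33.40 in the 3 βTC1 samples and none in any well of the 3 αTC1-6 samples, in either table. With the wells without product at cycle 40 this was a log2 difference of 6.92, and with every Ct above 35 set to 35 it was 1.92. Its p-value is not given, since the filter chose it for its βTC1 values. mmu-miR-218-1* (Mir218-1, in Slit2) had a ΔCt of 17.37, 17.15 and 16.38 in αTC1-6 and of 12.29, 11.04 and 13.14 in βTC1, and the groups did not overlap. Its log2 difference was 4.80 ± 0.69 (SE, adjusted p = 0.00866, Limma test), but 1 of the paired wells of the first αTC1-6 sample had no Ct and the other read 32.70, and when undetermined wells were left out of the mean the difference was 3.59 with an adjusted p-value of 0.14. With the first well alone it was 2.68 (adjusted p = 0.23). The direction was thus the same under each way of averaging, and the call was not.

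miR-129, which in neurons represses mRNAs of excitability, passed the test with 1 of its arms. mmu-miR-129-3p had a ΔCt of 6.56, 8.09 and 7.71 in αTC1-6 and of 4.59, 2.61 and 4.08 in βTC1, and the lowest αTC1-6 value lay 1.97 cycles above the highest of βTC1. The log2 difference was 3.69 ± 0.74 (SE, adjusted p = 0.00914, Limma test), or 12.9-fold. mmu-miR-129-5p had a ΔCt of 7.98, 8.02 and 9.02 in αTC1-6 and of 8.57, 7.23 and 8.44 in βTC1, and these groups overlapped. Its log2 difference was 0.26 ± 0.60 (SE, adjusted p = 0.77). The Ct of one arm minus the Ct of the other in the same sample needs no reference. The 5p sequence is made from Mir129-1 and Mir129-2, while the 3p sequence matched here comes from Mir129-2. Likewise mmu-miR-218 reads both of its genes and its star assay is named for 1. These gaps therefore need not be gaps within 1 hairpin, and the part of each gene was not tested. Both arms of miR-129 were read on card A. In the other pairs the star arm was read on card B, so their gap also takes in any difference between the cards of a sample. The 5p assay crossed the threshold 3.98, 4.61 and 4.36 cycles after the 3p assay in the 3 βTC1 samples, and 1.42, -0.07 and 1.32 cycles after it in the 3 αTC1-6 samples. The gap between the arms was 4.32 ± 0.32 (SD, n = 3) cycles in βTC1 and 0.89 ± 0.83 in αTC1-6, a difference of 3.43 cycles with no overlap (exact permutation test, two-sided, p = 0.1, the smallest that 3 against 3 samples allow). In all 12 αTC1-6 samples, treated or not, the gap was at most 2.02 cycles. The same gap was computed for 5 pairs of arms, and miR-129 was not alone in having groups apart. mmu-miR-218-1* followed mmu-miR-218 by 6.93 ± 1.00 (SD, n = 3) cycles in βTC1 and by 4.24 ± 0.80 in αTC1-6 (exact permutation test, two-sided, p = 0.1), and mmu-miR-138* followed mmu-miR-138 by 10.63 ± 0.30 and 8.88 ± 0.80 (exact p = 0.1). Both gaps rest on late star assays. mmu-miR-138* had a Ct of 32.12 to 33.87 in these samples, as the mean of paired wells. At the widest in each line, its wells read 35.96 and 31.39 in the second αTC1-6 sample and 32.41 and 34.92 in the third βTC1 sample. Both are wider than the 1.75 cycles by which the miR-138 gap differed between the lines. mmu-miR-218-1* had a Ct of 34.07 to 36.35 in αTC1-6, with 1 well of the first sample undetermined. The part of these late values in the gaps was not tested. For miR-124 the gap was 1.09 ± 1.46 and 2.73 ± 1.52 (exact p = 0.2).

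**Figure D2:**
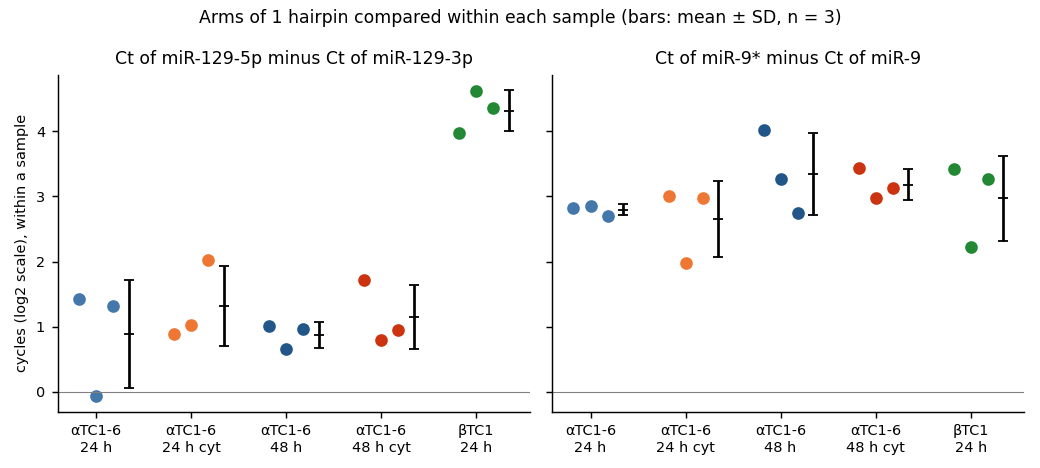
Cycles by which one arm of a hairpin follows the other within each sample, for miR-129 (left) and miR-9 (right), in the 5 conditions; points are samples, and the bars give mean ± SD (n = 3). The miR-129 gap was 4.32 ± 0.32 cycles in βTC1 against 0.89 ± 0.83 in untreated αTC1-6 of 24 h, while the miR-9 gap was 2.97 ± 0.65 and 2.79 ± 0.08 in the same groups. Both miR-129 assays are on card A, while mmu-miR-9 is on card A and mmu-miR-9* on card B.

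mmu-miR-137, which acts in neurogenesis, had a ΔCt of 6.90, 6.40 and 6.90 in αTC1-6 and of 4.14, 3.53 and 4.68 in βTC1. The groups lay apart by more than the spread within either. The log2 difference was 2.62 ± 0.49 (SE, adjusted p = 0.00698, Limma test), or 6.13-fold. mmu-miR-138, known for restraining dendritic spine growth, was closer to the limit: its ΔCt was 5.98, 6.39 and 6.28 in αTC1-6 and 4.55, 4.73 and 5.16 in βTC1. The groups did not overlap and the log2 difference was 1.40 ± 0.42 (SE, adjusted p = 0.0395), but leaving out 1 sample at a time gave an adjusted p-value between 0.0398 and 0.176, under the threshold in 1 of 6 cases. mmu-miR-138*, named for the other arm, had a log2 difference of -0.35 ± 0.65 (SE, adjusted p = 0.76) and a Ct of 32.12 to 33.87 in the 6 samples.

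mmu-miR-153, whose hairpin lies in the gene of a secretory vesicle protein, had a difference of the same size as miR-138 without passing the test. Its ΔCt was 10.63, 10.74 and 12.07 in αTC1-6 and 9.58, 9.24 and 10.27 in βTC1, so that all 3 βTC1 samples lay below all 3 αTC1-6 samples, by 0.36 cycles at the nearest. The log2 difference was 1.45 ± 0.60 (SE) with an adjusted p-value of 0.108 (Limma test). The third αTC1-6 sample was 1.33 cycles from its nearest neighbour. In a fit over all 15 samples the adjusted p-value was 0.019, and it was 0.0167 when every sample was centred on the median of its assays. It passed under 3 of the 21 alternatives tried and not under 18. Leaving out 1 sample at a time gave an adjusted p-value between 0.0966 and 0.322, under the threshold in 0 of 6 cases.

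The remaining 5 assays did not pass the test. mmu-miR-9, the neural progenitor miRNA, had a ΔCt of 0.16, 1.22 and 1.26 in αTC1-6 and of 0.69, 0.77 and 0.99 in βTC1, with the βTC1 values inside the αTC1-6 range. Its log2 difference was 0.06 ± 0.49 (SE, adjusted p = 0.94, Limma test), and that of mmu-miR-9* was -0.11 ± 0.58 (adjusted p = 0.91). The gap between both arms of miR-9, read on cards A and B, was 2.79 ± 0.08 (SD, n = 3) cycles in αTC1-6 and 2.97 ± 0.65 in βTC1 (exact permutation test, two-sided, p = 0.8). mmu-miR-124, a marker of neurons, had a log2 difference of 0.58 ± 0.57 (SE, adjusted p = 0.49, Limma test) and mmu-miR-128a one of -0.56 ± 0.49 (adjusted p = 0.43). mmu-miR-124* had the widest error of the 14, with a log2 difference of 2.23 ± 1.20 (SE, adjusted p = 0.40), and its ΔCt of 9.96, 6.04 and 7.14 in the 3 βTC1 samples spread over more cycles than the 9.55, 11.26 and 9.02 of the αTC1-6 samples.

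**Figure D3:**
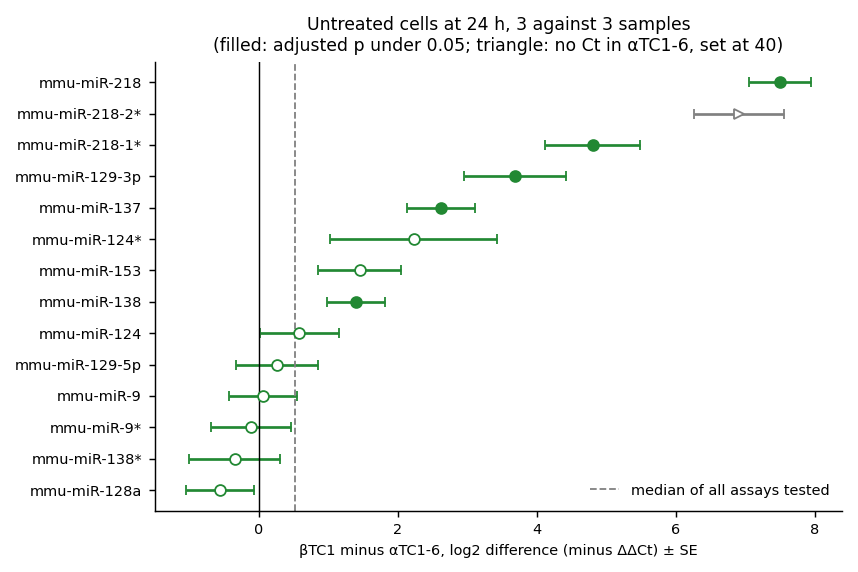
Log2 difference between untreated βTC1 and αTC1-6 at 24 h for the 14 assays (horizontal axis, minus ΔΔCt ± SE, 3 against 3 samples); filled circles had an adjusted p-value under 0.05, the grey triangle marks the assay without a Ct in αTC1-6, and the dashed line is the median of all 480 assays tested, 0.52. The 5 filled circles all lie to the right of 0, from 1.40 for mmu-miR-138 to 7.50 for mmu-miR-218.

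Other miRNAs enriched in brain did not share one direction. Of 23 such assays from the families miR-7, miR-132, miR-134, miR-212, miR-219, miR-326, miR-330, miR-338, miR-344, miR-346, miR-383, miR-488, miR-551b and miR-874, 17 were tested and 3 were past the threshold. mmu-miR-134, known from dendrites, was lower in βTC1 by a log2 difference of -4.46 ± 0.54 (SE, adjusted p = 0.00109, Limma test), and mmu-miR-488 was lower by -3.19 ± 0.59 (adjusted p = 0.00668). mmu-miR-330 was higher in βTC1 with an adjusted p-value of 0.000111 in the normalized table, where its 3 αTC1-6 samples had no Ct, but in the non-normalized table all 3 had one and the adjusted p-value was 0.608, so its size is not given. The median of the 17 was 0.40, beside 0.52 over all assays.

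Across the 5 conditions, the 4 αTC1-6 conditions lay near each other and βTC1 apart for mmu-miR-218, mmu-miR-137 and mmu-miR-129-3p. They were less close for mmu-miR-138 and mmu-miR-218-1*. The mean ΔCt of mmu-miR-218 was 12.73 ± 0.50 (SD, n = 3), 13.01 ± 0.97, 12.98 ± 1.03 and 12.30 ± 1.01 in αTC1-6 untreated at 24 h, treated at 24 h, untreated at 48 h and treated at 48 h, and 5.23 ± 0.12 in βTC1. That of mmu-miR-137 was between 6.73 ± 0.29 in untreated cells of 24 h and 7.33 ± 0.14 in treated cells of 48 h, and 4.12 ± 0.57 in βTC1. That of mmu-miR-129-3p was 7.45 ± 0.80, 7.70 ± 0.52, 7.67 ± 0.61 and 8.18 ± 0.54, and 3.76 ± 1.03 in βTC1. That of mmu-miR-138 ran from 5.85 ± 0.23 in untreated to 6.81 ± 0.35 in treated cells of 48 h, and was 4.81 ± 0.32 in βTC1. For mmu-miR-218-1* it ran from 16.21 ± 2.05 in treated cells of 24 h to 19.22 ± 2.19 in treated cells of 48 h. The latter included a sample without a Ct, set at 40, and the βTC1 mean was 12.16 ± 1.06. For mmu-miR-218 and mmu-miR-129-3p, neighbours in the order of the 4 αTC1-6 means differed by less than the SD of at least 1 of them. mmu-miR-9 ran over no more than 0.55 cycles between its 5 condition means, from 0.67 ± 0.60 in untreated αTC1-6 at 48 h to 1.21 ± 0.20 in treated αTC1-6 at 48 h.

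The assays with the pattern most like that of mmu-miR-218 over the 15 samples, of 266 compared, were mmu-miR-194 (Pearson r = 0.969), mmu-miR-19b (r = 0.968) and mmu-miR-365 (r = 0.965). For mmu-miR-129-3p they were mmu-miR-92a (r = 0.970), mmu-miR-17 (r = 0.966) and mmu-miR-106a (r = 0.964), and for mmu-miR-124* they were mmu-miR-744 (r = 0.796), mmu-miR-31 (r = 0.783) and mmu-miR-484 (r = 0.773). These r values describe 15 samples that fall into 1 cell line and the other and that share the miR-26a reference.

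Treatment with cytokines for 24 h moved none of the neuronal miRNAs past the threshold. Of the 13 assays tested in αTC1-6, all but mmu-miR-218-2*, 0 were called, with 0 at an unadjusted p-value under 0.05 (Limma test), and 1 of 445 assays was called over both cards, 0.225%, and 0 with the replicate number as a block. None of the 13 had all 3 treated samples on one side of the 3 controls, and few assays did: 21 of the 445 lay apart as higher and 25 as lower. The median log2 difference, treated minus control, was -0.24, beside -0.15 over all assays. The largest was that of mmu-miR-138*, 1.92 ± 1.20 (SE, adjusted p = 0.91), whose treated samples had a ΔCt of 14.94, 13.81 and 10.77 against 14.71, 16.13 and 14.44 in controls. mmu-miR-218 had a log2 difference of -0.29 ± 0.61 and mmu-miR-9 one of 0.18 ± 0.50 (SE).

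At 48 h PT, 12 of the 13 assays had a lower mean level in treated than in control αTC1-6, relative to miR-26a, and again 0 passed the test (2 at an unadjusted p-value under 0.05, Limma test). Over all assays, 399 of 534 had a lower mean level in treated cells and 60 had an unadjusted p-value under 0.05 (Limma test). Of the 534, 3 were called, 0.562%, and 0 with the replicate number as a block. The median log2 difference of the 13 was -0.55 and that of all 534 assays was -0.51, so the members' median lay near that of all assays. When each sample was instead centred on its median, the median of the 13 was 0.13 and 7 were above 0. For 6 of the 13 all 3 treated samples lay below all 3 controls (mmu-miR-124*, mmu-miR-128a, mmu-miR-129-5p, mmu-miR-137, mmu-miR-138 and mmu-miR-153), and the same held for 90 of the 534 assays, 16.9%. Same-numbered treated and control samples deviated together, and by pairs the treated sample was the lower in all 3 for 8 of the 13 assays, the 6 above with mmu-miR-9 and mmu-miR-129-3p, and for 250 of the 534 assays, 46.8%. The ΔCt of mmu-miR-129-3p was greater in the treated sample by 0.59, 0.48 and 0.45 cycles in the 3 pairs. With the replicate number as a block, 0 of the 13 passed (adjusted p-values of 0.110 to 0.804, Limma test) and 3 had an unadjusted p-value under 0.05.

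The lowest unadjusted p-value of the 13 was that of mmu-miR-138, while the lowest adjusted one was that of mmu-miR-124* on card B. Its ΔCt was 5.59, 5.96 and 6.01 in controls and 6.46, 7.15 and 6.81 in treated samples, a log2 difference of -0.96 ± 0.33 (SE, unadjusted p = 0.0327, adjusted p = 0.48, Limma test). mmu-miR-128a, which acts in neuronal excitability, had a ΔCt of 5.36, 5.99 and 6.01 in controls and of 6.47, 6.68 and 6.77 in treated samples, a log2 difference of -0.85 ± 0.32 (unadjusted p = 0.0447, adjusted p = 0.53). Both groups were apart, and with median centring the differences were -0.27 and -0.17. mmu-miR-129-5p had a log2 difference of -0.79 ± 0.37 (SE, adjusted p = 0.65) and mmu-miR-124* one of -1.93 ± 0.79 (adjusted p = 0.34). For mmu-miR-137 (-0.33 ± 0.26) and mmu-miR-153 (-0.31 ± 0.27) the sign turned with median centring, to 0.35 and 0.37. mmu-miR-218 was the only 1 of the 13 above 0, at 0.68 ± 0.78 (SE, adjusted p = 0.83), and its treated sample was the higher in all 3 pairs (adjusted p = 0.33 with the block). The islet miRNA miR-375 had a ΔCt of -3.22 ± 0.73 (SD, n = 3) in controls and -2.21 ± 0.49 in treated samples, and its part in these values was not tested.

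**Figure D4:**
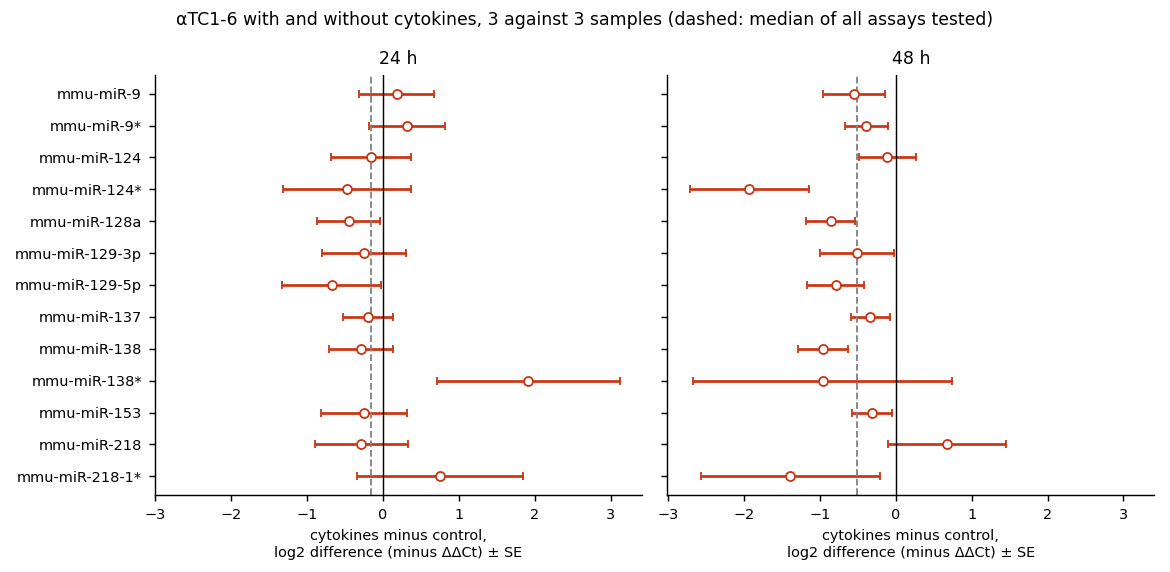
Log2 difference between cytokine-treated and control αTC1-6 (horizontal axis, minus ΔΔCt ± SE, 3 against 3 samples) at 24 h (left) and 48 h (right) for the 13 assays tested; open circles did not pass the test, and the dashed line is the median of all assays tested, -0.15 and -0.51. At 48 h the members lie around the dashed line and not around 0.

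The change in cytokine effect from 24 h to 48 h was tested as an interaction over the 12 αTC1-6 samples. None of the 13 assays passed, with 0 at an unadjusted p-value under 0.05 (Limma test), and 1 of 477 assays did, 0.21%. The largest difference of effects was that of mmu-miR-138*, -2.88 ± 2.18 (SE, adjusted p = 0.56). The 24 h and 48 h effects are measured in separate samples.

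Time in culture moved none of the neuronal miRNAs past the threshold either. Between untreated αTC1-6 at 48 h and at 24 h, 0 of 13 assays were called and 0 had an unadjusted p-value under 0.05 (Limma test), while 29 of 489 assays were called, 5.93%. The log2 differences, 48 h minus 24 h, had a median of -0.10, beside -0.01 over all assays, and those of the 9 card A assays lay between -0.27 for mmu-miR-137 and 0.36 for mmu-miR-138. mmu-miR-137 had all 3 samples of 48 h, at a ΔCt of 6.99, 7.02 and 6.98, above the 6.90, 6.40 and 6.90 of 24 h (log2 difference -0.27 ± 0.31, SE, adjusted p = 0.91). The largest was that of mmu-miR-138*, 1.78 ± 1.24 (SE, adjusted p = 0.87). Of the other brain-enriched assays, 2 of 18 were called, rno-miR-219-2-3p and rno-miR-344-3p, both without a Ct in the 3 untreated samples of 24 h in the normalized table and each with a Ct in 2 of them in the non-normalized table. With the non-normalized table, 2 of all assays were called.

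For 4 of the 5 card B arms a pair of wells shows how far repeat wells of a sample differ. The card A assays and mmu-miR-9* had 1 well each. For mmu-miR-138* both wells had a Ct in all 15 samples and differed by a median of 1.60 cycles and by up to 7.07, in the first untreated αTC1-6 sample of 48 h, which read 34.08 and 27.01. For mmu-miR-124* the median gap was 1.17 cycles and the largest 1.99. mmu-miR-218-1* had a Ct in both wells in 12 samples, in 1 well in 2 samples and in none in 1 sample, with gaps of up to 4.19 cycles. The 3 βTC1 samples of mmu-miR-218-1* differed between wells by no more than 0.56 cycles.

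**Figure D5:**
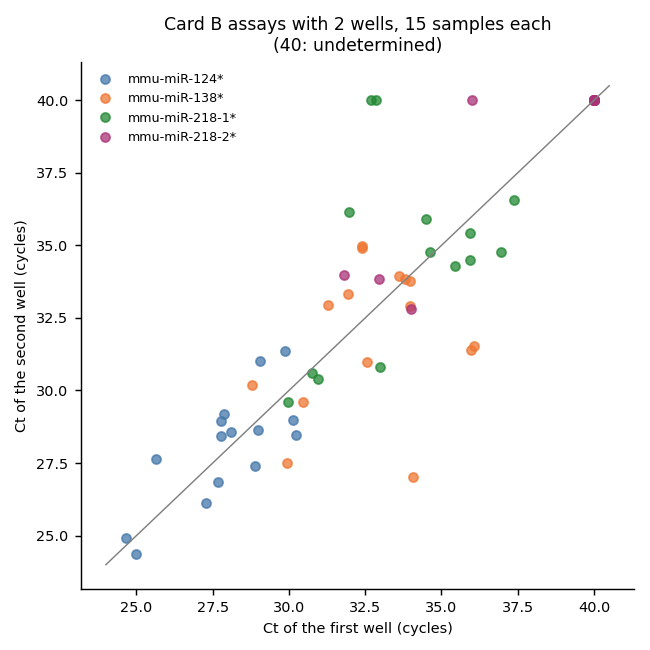
Ct of the second well against the first (both in cycles) for the 4 card B assays spotted in a pair of wells, 1 point per sample; the line marks equal Ct and wells at 40 were undetermined. mmu-miR-138* scatters widest, with a largest gap of 7.07 cycles, and mmu-miR-218-2* has only undetermined pairs in αTC1-6 but for 1 well at 36.01.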

How the data were processed

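Total RNA of 15 samples (5 conditions, 3 replicates each, mapped from the labels) was profiled on TaqMan rodent miRNA cards A and B after Megaplex reverse transcription and preamplification. The authors deposited raw Ct values (PCR cycles per well) and ΔCt values on the log2 scale, in which miR-26a is 0 in every sample, although their methods describe several candidate references. Another deposited table holds only the authors' own fold changes and was not used. PCR gives no read depth, so the number of samples and of wells limits the precision.

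Ct was recovered as ΔCt plus the Ct of miR-26a, undetermined wells were set at 40, and duplicate wells were averaged. Assays with a Ct in at least 3 of 6 samples (6 of 12 for the interaction) entered limma (version 3.58.1, R 4.3.3), fitted on minus ΔCt, two-sided, with Benjamini-Hochberg adjustment over all assays of a card and a threshold of 0.05. Each comparison used only its own samples. The untreated αTC1-6 samples of 24 h serve as controls in 3 comparisons, which are therefore not independent. The fit was tested on simulated data. Exact permutation tests used scipy 1.17.1, and sequences and positions came from RefSeq tables of GRCm38.p6.

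Replicate numbers came from the labels. Deviations from the condition means correlated between same-numbered samples by 0.28, 0.36 and 0.48 for cytokines at 24 h and by 0.33, 0.44 and 0.26 at 48 h, and those comparisons were repeated with the number as a block. In the comparison of the lines every assay of the 8 families tested was named. Elsewhere the text names members past the threshold, members whose groups lay apart and the member with the largest difference, and for likeness the 3 assays of highest r for up to 3 members with the widest range. A few further members are given for comparison with their line difference and were picked after their values were seen. The members and lists were chosen with earlier results of these data known. Alternatives covered the reference, filter, Ct cap, table, wells, adjustment, fit, block, prior and left-out samples. Averaging only wells with a Ct was added after the data were seen.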

Additional observations from a re-analysis of the deposited data

How the results depend on the processing

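Under the alternatives tried, the number of neuronal miRNA assays called between the lines stayed between 4 and 7 (main value 6, or 5 without mmu-miR-218-2*), with 4 to 5 when 1 sample was left out and 4 with a replicate block, and it stayed at 0 in the comparisons of cytokines, of time and of the interaction. mmu-miR-218, mmu-miR-129-3p and mmu-miR-137 passed under all 21 alternatives. mmu-miR-138 failed under 11, including no normalization (adjusted p = 0.0689), the replicate block (0.068) and the controls of 48 h (0.105), mmu-miR-218-1* under 5, including the replicate block (0.063), and mmu-miR-218-2* with Ct above 35 set to 35 (log2 difference 1.92, adjusted p = 0.15). mmu-miR-218-2* could not be tested without any 1 of the βTC1 samples, where too few Ct values were left. mmu-miR-153 passed with median centring, with U6 and small nucleolar RNAs as reference (1.92, adjusted p = 0.041) and in the fit over 15 samples. Small differences between the lines changed sign. For mmu-miR-9 the value was -0.0038 with median centring, -0.0815 without normalization, -0.15 with 48 h controls and -0.13 to 0.43 when 1 sample was left out. For mmu-miR-9* it was 0.0087 with U6 and small nucleolar RNAs, 0.225 with 48 h controls and -0.50 to 0.23 when 1 sample was left out, and for mmu-miR-129-5p -0.17 to 0.51. At 48 h PT, mmu-miR-137 turned to 0.35 and mmu-miR-153 to 0.37 with median centring and mmu-miR-153 to 0.0199 with U6 and small nucleolar RNAs. mmu-miR-137 turned to 0.13 between 48 h and 24 h with the same reference. The causes were not tested.

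Over all assays, the calls between the lines, 85 higher and 57 lower in βTC1, became 81 in all where a Ct was asked of every sample, a filter that leaves fewer assays, and 94 to 110 when 1 sample was left out, 94 without the third αTC1-6, the first βTC1 or the second βTC1 sample. The single call for cytokines at 24 h became 0 with a Ct in every sample, a Ct cap of 35, the non-normalized table, the replicate block (47 at an unadjusted p under 0.05) and a trended prior, 2 in the fit over 15 samples and 0 to 2 when 1 sample was left out. The 3 calls at 48 h became 1 with undetermined wells as missing, 5 in the fit over 15 samples, 0 with the replicate block (121 at an unadjusted p under 0.05) and 0 to 5 when 1 sample was left out, with 0 without the second or the third treated sample and 5 without the first control. The 29 calls for time became 1 with a Ct in every sample, 0 with undetermined wells as missing, 2 with the non-normalized table and 0 to 30 when 1 sample was left out, with 0 without any 1 of the samples of 48 h. Same-numbered samples of the lines correlated by 0.08, 0.09 and 0.06, and differently numbered ones by -0.11 to 0.01. Whether the former share more than a number was not tested. Same-numbered samples of untreated αTC1-6 at 48 h and 24 h correlated by -0.04, 0.24 and 0.07.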

Other observations

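The decimals of the Ct values were unevenly spread. Of 135 Ct values of the 9 card A neuronal miRNA assays, 73 (54.1%) had a fractional part of 0.9 or more, as in 25.97, 24.96 or 23.94, and of all 9130 Ct values on both cards 3237 (35.5%) did. On card A the share ran from 26.7% in the third cytokine-treated sample of 48 h to 59.6% in the third cytokine-treated sample of 24 h. On card B it ran from 20.7% in the third βTC1 sample to 35.3% in the second. The share over both cards is therefore not a like background for the card A assays. The ΔCt of mmu-miR-218 was 12.06, 12.99 and 13.99 in the 3 cytokine-treated samples of 24 h, near whole cycles apart. The part of these decimals in the results was not tested.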
